A study of Chlamydomonas reinhardtii with 45 samples.

Results

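The mRNA levels of *Chlamydomonas reinhardtii*, a unicellular green alga, were compared between +10 h and +6 h after the start of the light period in populations acclimated to moderate light (ML). The comparison uses all libraries that the sample labels place in medium light at these timepoints, 3 at +10 h and 3 at +6 h, which is 6 of the 45 libraries in the series. The series as a whole followed populations in low (LL), moderate, and high light (HL) at 5 timepoints of the day to learn how light intensity alters the daily program of gene expression. At both timepoints the cells were strain CC-5390, labelled WT, under 200 µmol photons per square metre per second, with 12 h of light at 28 °C and 12 h of dark at 18 °C. The strain carries the cw15 cell wall mutation and mating type plus, and its arginine requirement was rescued with ARG7. Cultures grew without organic carbon on air in photobioreactors. Flow of medium, which held the density constant, was stopped at the onset of the night before sampling, so cells of both timepoints had grown in batch since then. According to the methods, replicates were separate experiments in different weeks, and poly(A) RNA was sequenced.

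Synchronous *Chlamydomonas* cells grow through the day and divide by multiple fission around dusk. Before division the cell commits, replicates its DNA, divides its single chloroplast, and resorbs its cilia, whose basal bodies then take part in placing the spindle and cleavage furrow. Daughters hatch from the mother wall and rebuild their cilia. Genes of photosynthesis, pigment synthesis, and carbon uptake are known to be expressed mainly in the light, before those of division.

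The unit is FPKM, fragment counts divided by transcript length and by the total of mapped fragments, as the authors deposited it. Of 17609 genes in the table, the 14602 with at least 1 FPKM in at least 3 of the 45 libraries were tested with limma on log2(FPKM + 1). Rises and falls are those with an adjusted p (Benjamini-Hochberg) under 0.01 and a log2 fold change of more than 1 in size, and fold changes are given as +10 h over +6 h with their standard error. On this scale the pseudocount of 1 shrinks the change of mRNAs near or below 1 FPKM. Levels above 0 were listed for 15749 to 15802 genes per library at +10 h and for 15018 to 15478 at +6 h. The 10 most abundant mRNAs took 7.78 to 8.15% of the summed FPKM at +10 h and 11.5 to 11.9% at +6 h. Replicates had a Pearson correlation of FPKM of at least 0.980 at +10 h and at least 0.996 at +6 h. Replicate 3 at +10 h stood somewhat apart: 168 genes lay more than 1 log2 unit below the mean of the other two libraries there, against 21 and 37 for replicates 1 and 2. Without it, 2592 genes rose and 1709 fell. FPKM is a share of the sequenced mRNA, and in RNA from whole cultures fewer cells of a type and less RNA per cell cannot be told apart.

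In all, 2503 genes rose at +10 h and 1639 fell, which is 17.1% and 11.2% of the tested genes. The libraries of the groups did not overlap for 2487 of the risen genes and 1633 of the fallen ones, and for 71.4% of all tested genes. The rises were also the larger changes: 450 risen genes but 101 fallen genes passed an absolute log2 fold change of 3. Of the risen genes 1020 averaged below 1 FPKM at +6 h, while 179 fallen genes averaged below 1 FPKM at +10 h. The balance of rises and falls depends on the scale. Rises made up 60.4% of calls on FPKM as deposited, 43.2% after each library was scaled to the same median, and 50.0% after quantile normalization. The median of all tested genes lay 0.27 log2 units higher at +10 h than at +6 h, so that median scaling lowers every log2 fold change by that much.

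**Figure D1:**
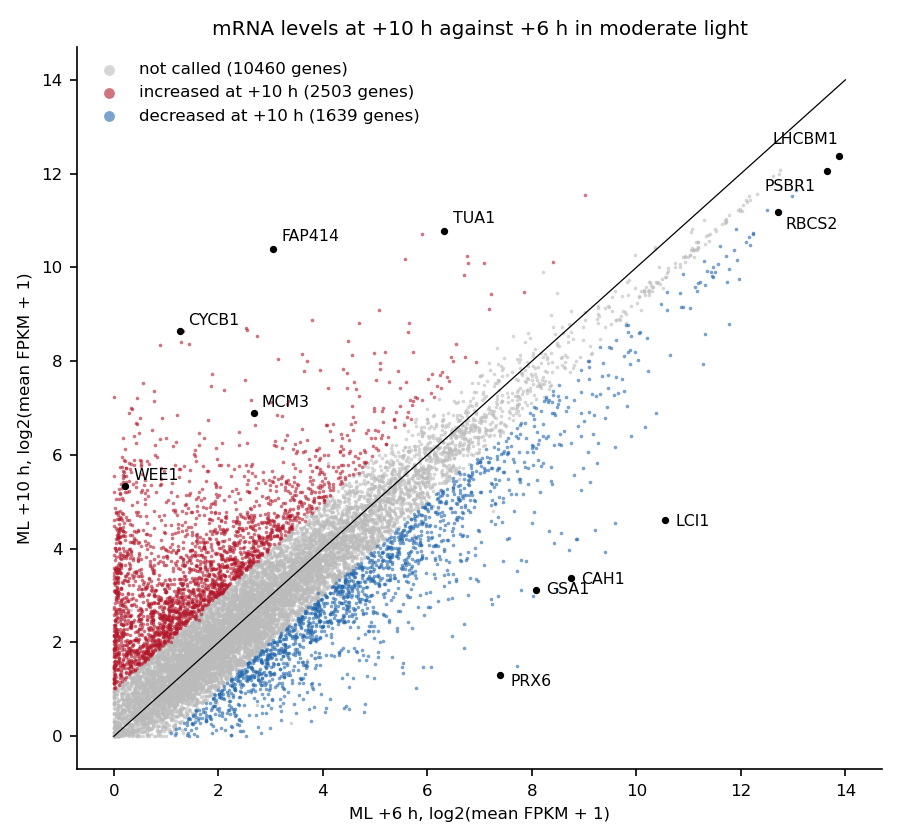
Mean level of each tested gene in ML at +10 h (vertical axis) and at +6 h (horizontal axis), both as log2(mean FPKM + 1) over 3 libraries, with genes that rose in red, those that fell in blue, and the line of equal level in black. The 2503 risen genes lie mostly at low levels at +6 h, and abundant photosynthesis mRNAs such as LHCBM1 and PSBR1 lie below the line.

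The largest rises among annotated genes were in mRNAs that were near 0 at +6 h and abundant at +10 h. FAP414, named for a protein found in cilia, had 1471, 1239.8, and 1325 FPKM at +10 h, against 6.37, 12.3, and 3.17 FPKM at +6 h. CYCB1, the B-type cyclin of mitosis, had 450.4, 444, and 300.5 FPKM at +10 h, against 1.53, 1.92, and 0.753 FPKM at +6 h, and CDKB1, the plant-specific cyclin-dependent kinase, had 202, 175, and 179 FPKM at +10 h, against 0.389, 0.619, and 0.400 FPKM at +6 h. RIR2, the small subunit of the ribonucleotide reductase that makes DNA precursors, had 383, 319, and 308 FPKM at +10 h, against 1.17, 2.14, and 0.967 FPKM at +6 h. All 3 libraries at +10 h stood far above all 3 at +6 h for each of these genes, and replicate 3 was the lowest at +10 h for CYCB1. Mean FPKM was 184-fold higher at +10 h for FAP414, 284-fold for CYCB1, 395-fold for CDKB1, and 236-fold for RIR2. Their log2 fold changes were 7.50 ± 0.38, 7.39 ± 0.35, 6.99 ± 0.30, and 7.14 ± 0.32, with limma adjusted p of 1.1e-18, 1.5e-19, 2.3e-20, and 5.4e-20.

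The other genes among the 12 largest annotated rises were Cre09.g396772, described as similar to the wall proteases gametolysin and autolysin (7.47), MIND1 (6.99), MINE1 (6.79), the BAR domain gene BAR1 (6.68), TOP2, a DNA topoisomerase that separates replicated DNA (6.66), the A-type cyclin CYCA1 (6.58), the kinesin KIN14A2 (6.19), and Cre13.g579450, described as a membrane transporter specific to the alga (5.96), with the log2 fold change in parentheses. Cre09.g396772 had 359, 327, and 282 FPKM at +10 h, against 0.885, 1.14, and 0.477 FPKM at +6 h. Cre13.g579450 had 541, 516, and 158 FPKM at +10 h, against 5.05, 6.20, and 3.20 FPKM at +6 h, and was the one of these 12 in which replicate 3 at +10 h fell furthest from its partners, although it still lay above every library at +6 h. Of the risen genes 39.3% carried a symbol or description, against 56.4% of the fallen genes and 40.4% of all tested genes.

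The 12 largest falls among annotated genes included PRX6, a peroxiredoxin Q, which reduces peroxides, and genes of carbon dioxide uptake and tetrapyrrole synthesis. PRX6 had 1.36, 1.44, and 1.58 FPKM at +10 h, against 155, 133, and 214 FPKM at +6 h. LCI1, a low-CO2-inducible membrane protein, had 15.2, 24.1, and 31.2 FPKM at +10 h, against 1459, 1581, and 1454 FPKM at +6 h. All 3 libraries at +10 h were low and all 3 at +6 h high for both genes, a separation that was a condition for choosing these 12 genes and the 12 rises. The fold of mean FPKM, +6 h over +10 h, was 114 for PRX6 and 63.7 for LCI1, with log2 fold changes of −6.07 ± 0.14 and −5.99 ± 0.29 (limma adjusted p = 5.8e-28 and 4.2e-19). The others, each with its log2 fold change, were the carbonic anhydrases CAH1 (−5.54), CAH4 (−5.47), and CAH5 (−5.07), the tetrapyrrole enzymes CPX1 (−5.35), PBGD1 (−5.04), GSA1 (−4.93), and CHLD1 (−4.81), the chloroplast desaturase FAD6 (−4.80), the Calvin-Benson cycle enzyme RPE1 (−4.73), and the rhodanese-like protein TEF4 (−4.69). CAH4 and CAH5 are near-identical genes, and their reads may have been divided between them.

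**Figure D2:**
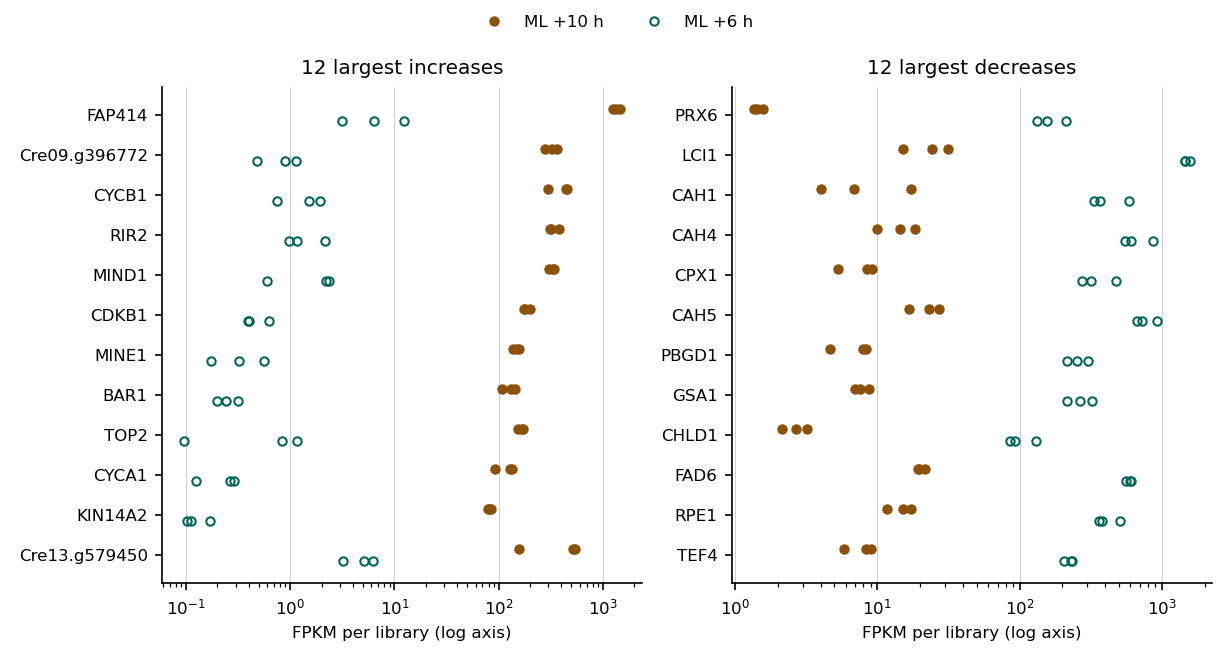
FPKM in each ML library (horizontal log axis) for the 12 largest annotated rises (left) and falls (right), with the 3 libraries at +10 h as filled brown points and the 3 at +6 h as open green circles. Genes were chosen among those without overlap of the groups, and the highest +6 h level among the rises is 12.3 FPKM, for FAP414.

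Among division regulators, the largest rises were in genes of mitosis. Of 44 genes for cyclins, cyclin-dependent kinases, and other division regulators, 17 rose and 3 fell, with a median log2 fold change of 0.48 over the 43 tested, against 0.02 over all tested genes. WEE1, the kinase that restrains mitotic entry, had 43.3, 39.4, and 35.9 FPKM at +10 h, against 0.160, 0.191, and 0.111 FPKM at +6 h (log2 fold change 5.13 ± 0.24). ESP1, the separase that frees sister chromatids, had 6.85, 7.64, and 7.05 FPKM at +10 h, against 0, 0.257, and 0.0659 FPKM at +6 h (2.89 ± 0.14). The spindle checkpoint gene MAD2, the anaphase activator CDC20, and the Aurora-like kinase ALK2 rose by 5.12, 5.26, and 5.80 on the log2 scale. Subunits of the anaphase-promoting complex differed: CDC27 and APC10 rose by 1.88 and 1.74, whereas APC1 at −0.01 and APC2 at 0.41 were not called.

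The D-type cyclins, which act in commitment to division, were divided in direction. CYCD1 had 6.07, 5.92, and 7.50 FPKM at +10 h, against 0.597, 1.08, and 0.927 FPKM at +6 h and rose (2.01 ± 0.15). CYCD4 had 9.53, 8.96, and 12.5 FPKM at +10 h, against 28.6, 25.9, and 27.7 FPKM at +6 h and fell (−1.34 ± 0.13), as did CYCD5 (−1.18 ± 0.11). CDKG1, a kinase that relates mother cell size to the number of divisions, had 90.3, 79.8, and 84.97 FPKM at +10 h, against 42.7, 32.6, and 27.4 FPKM at +6 h and rose (1.31 ± 0.15). The retinoblastoma gene MAT3, the target of CDKG1, had 44.2, 39.1, and 45.8 FPKM at +10 h, against 38.8, 36.7, and 34.8 FPKM at +6 h, groups that did not overlap but differed by only 0.22 ± 0.12 (limma adjusted p = 0.11), or −0.05 after median scaling. Of its transcription factor partners, E2F1 had overlapping libraries (−0.21 ± 0.12, limma adjusted p = 0.12), and E2F2 fell (−1.34 ± 0.15). CDKA1, a cyclin-dependent kinase that acts at entry into division, had 105, 96.1, and 109 FPKM at +10 h, against 56.8, 51.5, and 51.4 FPKM at +6 h. Its libraries did not overlap, but the log2 fold change of 0.94 ± 0.19 lay under the minimum for a call, which it passed after quantile normalization (1.31).

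DNA replication showed a rise across nearly the whole list: 37 of 43 genes rose, and the median log2 fold change over all 43 was 2.58. Every one of the 17 origin licensing and helicase genes rose, by 1.51 to 5.23. MCM2, a subunit of the replicative helicase, had 94.1, 84.4, and 96.9 FPKM at +10 h, against 25.5, 24.8, and 18.1 FPKM at +6 h, and its partner MCM3 had 124, 114, and 116 FPKM at +10 h, against 6.36, 6.89, and 2.90 FPKM at +6 h. CDC45, a helicase activator, had 65.7, 61.3, and 60.9 FPKM at +10 h, against 0.791, 1.08, and 0.314 FPKM at +6 h. MCM2 was thus the most abundant of the 3 at +6 h and CDC45 the least. The clamp gene PCN1, whose product holds polymerases on DNA, had 407, 353, and 411 FPKM at +10 h, against 46.2, 55.9, and 43.9 FPKM at +6 h. The groups did not overlap for any of these genes, with log2 fold changes of 1.98 ± 0.26 for MCM2, 4.28 ± 0.26 for MCM3, 5.23 ± 0.29 for CDC45, and 2.98 ± 0.28 for PCN1. CDC6, a licensing factor, and POLA1, the catalytic subunit of the priming polymerase, rose by 3.64 and 3.52 on the log2 scale. Of the 5 genes not called, 4 encode clamp loader subunits, RFC1, RFC2, RFC4, and RFC5, with log2 fold changes between 0.34 for RFC2 and 0.73 for RFC4. The 1 fall was TSY1, which the table describes as a tyrosyl-tRNA synthetase and which stands in the list by its symbol alone.

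Genes that act on replicated chromosomes followed the same direction. Of 41 DNA repair and recombination genes 16 rose and 1 fell, with 2 falls without replicate 3 at +10 h, 3 without replicate 2 at +6 h, 5 after median scaling, and 4 after quantile normalization. Of 11 cohesin and condensin genes 8 rose and none fell. XPD4, a helicase of the RAD3/XP-D family, had 16.6, 17.0, and 16.4 FPKM at +10 h, against 0.132, 0.379, and 0.212 FPKM at +6 h (3.84 ± 0.21). The condensin subunits SMC2 and SMC4 rose by 5.39 and 5.72 on the log2 scale, while the cohesin subunit SMC1, with 5.37, 5.15, and 5.75 FPKM at +10 h, against 2.19, 1.71, and 2.21 FPKM at +6 h, rose by 1.08 ± 0.09, and SMC3 was at 0.47 without a call. The rise of SMC1 fell under the minimum after median scaling (0.82) and quantile normalization (0.81). MSH1, a mismatch repair homolog, was the gene that fell (−1.58 ± 0.12). Histones are less well covered: of 121 listed genes, 85 did not reach the level for testing, 15 rose and none fell, and their near-identical copies may have shared reads. The clearest rises there were the linker histone HON3, at 26.4, 26.2, and 9.81 FPKM at +10 h, against 0, 0.0949, and 0 FPKM at +6 h, and the H3 variants HTV1 (4.33 ± 0.37) and HTV3 (4.18 ± 0.44). Of all histones 28 rose and 2 fell with a pseudocount of 0.1, and 8 rose and 4 fell after median scaling.

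Genes for division of the chloroplast rose together. All 6 listed genes rose, by 4.58 to 6.99 on the log2 scale, with a median of 5.49. FTSZ1, a tubulin-like protein of the constricting ring, had 196, 176, and 206 FPKM at +10 h, against 6.18, 6.04, and 1.88 FPKM at +6 h. MIND1, which with the MinE proteins places that ring, had 333, 304, and 342 FPKM at +10 h, against 2.19, 2.34, and 0.598 FPKM at +6 h. MINE1 had 149.6, 137, and 157 FPKM at +10 h, against 0.172, 0.558, and 0.325 FPKM at +6 h. The libraries of these 3 genes were far apart between the timepoints, and replicate 3 was the lowest at +6 h for FTSZ1 and MIND1. Their log2 fold changes were 5.20 ± 0.33, 6.99 ± 0.35, and 6.79 ± 0.34, and the paralog MINE2 rose by 5.79 and ARC6, which anchors the ring, by 5.18.

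Genes for microtubules, basal bodies, and cilia rose as well. Of 34 tubulin and kinesin genes, 21 rose and none fell, 8 of the 9 tubulins among them. TUA1, an alpha tubulin, had 1903, 1856, and 1496 FPKM at +10 h, against 77.0, 92.3, and 68.2 FPKM at +6 h, and TUB1, a beta tubulin, had 603, 559, and 474 FPKM at +10 h, against 33.5, 41.0, and 23.7 FPKM at +6 h. TUG1, the gamma tubulin that nucleates microtubules, had 55.5, 52.7, and 56.5 FPKM at +10 h, against 9.10, 11.6, and 8.58 FPKM at +6 h. All 3 separated the timepoints, with rises of 4.45 ± 0.18, 4.04 ± 0.16, and 2.39 ± 0.16. TUA1 and TUB1 each have a near-identical copy, so that the level of each copy alone is uncertain. KIN14A2, KIN14B, and KIN7B were the leading kinesins, at 6.19, 5.14, and 4.96.

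Of 63 basal body and centriole genes 40 rose and 2 fell, with a median log2 fold change of 2.53. POC1, a conserved centriole protein, had 44.1, 42.3, and 36.4 FPKM at +10 h, against 0.0458, 0.141, and 0.115 FPKM at +6 h (5.25 ± 0.25). POB11 (5.29) and POC4 (4.87) rose similarly, although POC4 had 37.1, 40.8, and 20.6 FPKM at +10 h, with replicate 3 well below the others. The falls were POC17 (−2.43 ± 0.11) and POB22 (−1.09 ± 0.27), both named from proteomics of isolated basal bodies or centrioles, and POB22 passed the minimum no longer without replicate 3 at +10 h (−0.91) or at +6 h (−0.96), or after quantile normalization (−0.61). Of 34 genes of intraflagellar transport, the BBSome, and the transition zone, 31 rose and none fell. IFT88, a subunit of the transport train, had 20.1, 21.3, and 13.6 FPKM at +10 h, against 3.68, 4.09, and 4.53 FPKM at +6 h (1.90 ± 0.13), and the transition zone genes B9D1 (4.53), B9D2A (4.31), and MKS6 (3.92) rose most.

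The axoneme list is the broadest, with 437 genes, most of them named for detection in cilia. In it 196 genes rose and 12 fell, and the median was 0.91. Of the dynein arm genes 46 of 54 rose, and of the other genes 150 of 383, a difference that was not tested. After median scaling these counts were 40 and 97, and 19 genes of the list fell. Next to FAP414, the leading rises were FAP349 (5.45) and FAP291 (5.19). FAP291 had 529, 482, and 402 FPKM at +10 h, against 15.1, 16.9, and 6.31 FPKM at +6 h. The falls FAP211 (−4.34 ± 0.20), FAP269 (−4.30 ± 0.13), and FAP340 (−3.05 ± 0.24) carry names from the cilia proteome alone. Replicate 3 had the lowest mean log2 level of the +10 h libraries in all of these cilia lists, for example 4.11 for the transport genes, against 4.50 and 4.59 in replicates 1 and 2, with 2.24 to 2.31 at +6 h. Without it, 219 axoneme genes rose.

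**Figure D3:**
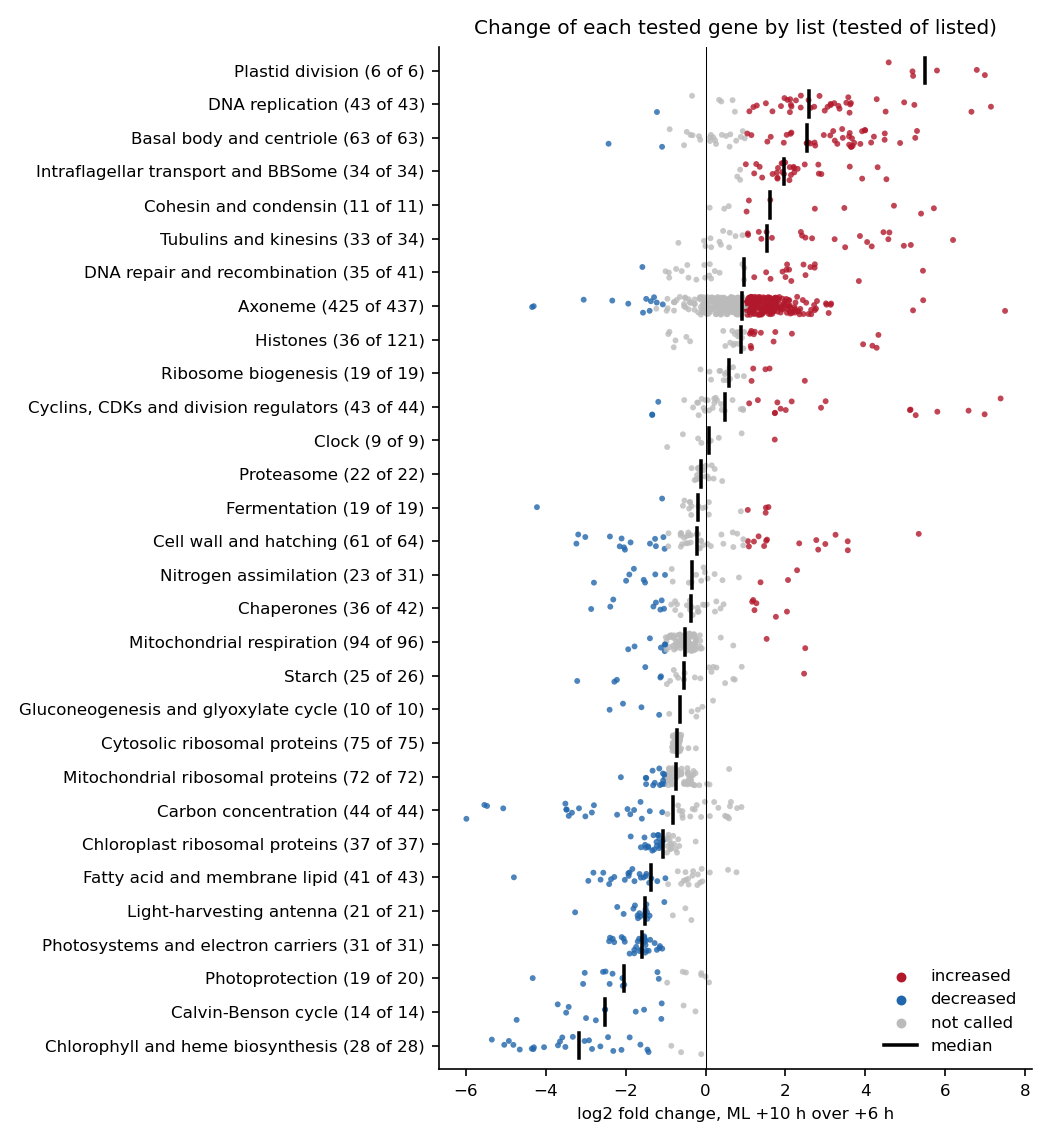
Log2 fold change in ML, +10 h over +6 h, of each tested gene (points) in 30 gene lists, ordered by their median (black bars), with rises in red, falls in blue, and genes not called in grey. The labels give the genes tested of those listed, and the medians run from 5.49 for plastid division to −3.18 for chlorophyll and heme biosynthesis.

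Photosynthesis mRNAs fell together but stayed abundant. Of 21 light-harvesting antenna genes 18 fell and none rose, and all 31 nuclear genes for photosystem subunits and electron carriers fell, with log2 fold changes of −2.41 to −1.08. LHCBM1, a major antenna protein of photosystem II, was the most abundant mRNA at both timepoints, with 5584, 5185, and 5051 FPKM at +10 h, against 15014, 14339.7, and 15839.9 FPKM at +6 h. PSBR1, a photosystem II polypeptide, had 4609.6, 4229, and 4016 FPKM at +10 h, against 12388, 12351, and 13931 FPKM at +6 h, and LHCBM7 had 3527, 3174, and 2973 FPKM at +10 h, against 8424, 8217, and 8872 FPKM at +6 h. The second most abundant mRNA at +10 h was RPLP1, an acidic protein of the cytosolic ribosome, with 4521, 4007, and 4371 FPKM at +10 h, against 6830.4, 6491, and 7222 FPKM at +6 h. LHCBM1 and PSBR1 fell (−1.51 ± 0.14 and −1.59 ± 0.12), whereas RPLP1 was lower without a call (−0.67 ± 0.07) and higher after quantile normalization (0.36). Quantile normalization, which gives every library the same distribution of values, left 5 antenna genes and 12 photosystem genes with a fall. Median scaling left 19 and 31. After quantile normalization LHCBM1, PSBR1, and LHCBM7 were at 0.00, −0.09, and −0.33, none of them called. The method gives the most abundant mRNA of every library the same value, so the 0.00 of LHCBM1 was fixed in advance. The values of other mRNAs near the top of the ranking are constrained in the same way, though less strictly.

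Within the photosynthetic apparatus the size of the fall varied. The antenna genes LHCBM8 (−3.27 ± 0.19) and LHCBM4 (−2.21 ± 0.22) fell most, and LHCA4 of photosystem I fell as well (−2.05 ± 0.14). PSAD1, a photosystem I subunit, had 1955, 1819.8, and 1646 FPKM at +10 h, against 3798, 3685, and 3996 FPKM at +6 h (−1.08 ± 0.07). PSBO1, which stabilizes the oxygen-evolving complex, had 1613, 1537, and 1349.8 FPKM at +10 h, against 4191, 4126, and 4775 FPKM at +6 h (−1.54 ± 0.10), and LHCA1 changed by −1.66 ± 0.14. After quantile normalization PSAD1, PSBO1, and LHCA1 were at −0.13, −0.72, and −0.94 and not called. The 11 genes for cytochrome b6f, carriers, and ATP synthase ranged from −2.41 to −1.16. Their median was −2.05, against −1.45 for photosystem I and −1.56 for photosystem II subunits. The largest falls of the 11 were those of FNR1, the ferredoxin-NADP reductase (−2.39 ± 0.15), and the cyclic electron flow regulator PETO1 (−2.33 ± 0.15), with CYC6, the copper-independent cytochrome, at −2.41 ± 0.38. CYC6 had 187, 209, and 83.5 FPKM at +10 h, against 681, 831, and 892 FPKM at +6 h, with replicate 3 at +10 h far below the others. LHCBM copies are near-identical in sequence and may have shared reads.

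LHCBM9, another antenna gene, varied widely between replicates. It had 27.4, 17.8, and 2835 FPKM at +10 h, against 72.8, 79.3, and 729.8 FPKM at +6 h, so that replicate 3 was the highest library at each timepoint and the groups overlapped. The log2 fold change of −0.51 ± 1.00 was not called (limma adjusted p = 0.67). Without replicate 3 at +10 h it was −2.82 and called, while it was 0.02 after quantile normalization, 0.50 and 0.80 without replicates 1 and 2 at +10 h, and 0.58 without replicate 3 at +6 h. Of genes for photoprotection 12 of 20 fell and none rose. LHCSR3B, a protein that dissipates excess excitation, had 30.9, 30.0, and 66.8 FPKM at +10 h, against 316, 334, and 339 FPKM at +6 h, and LHCSR1 had 13.4, 12.7, and 42.0 FPKM at +10 h, against 148, 151, and 217 FPKM at +6 h. Both fell (−3.03 ± 0.24 and −3.07 ± 0.30), as did the near-identical LHCSR3A (−2.40 ± 0.24), and replicate 3 was the highest of the +10 h libraries in each. ELIP3, an early light-induced protein, fell (−4.33 ± 0.13), as did STT7, the kinase of state transitions (−2.08 ± 0.10). PSBS1 was listed at 0 in all +10 h libraries and at 0, 0.172, and 0.0354 FPKM at +6 h, too low to be tested. PSBS proteins are needed for energy dissipation in land plants. The authors call their role in this alga unclear and take their own data as further evidence against a direct part in this dissipation.

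The largest list-wide fall was in chlorophyll and heme synthesis, where 25 of 28 genes fell and the median was −3.18. GSA1, which makes the first committed precursor aminolevulinate, had 7.55, 8.69, and 7.01 FPKM at +10 h, against 266, 214, and 322 FPKM at +6 h. CPX1, coproporphyrinogen oxidase, had 8.52, 9.24, and 5.31 FPKM at +10 h, against 316, 276, and 476 FPKM at +6 h, and POR1, the light-dependent protochlorophyllide reductase, had 41.6, 43.4, and 40.4 FPKM at +10 h, against 565, 498, and 602 FPKM at +6 h. The timepoints were widely apart in all libraries, and the log2 fold changes were −4.93 ± 0.14, −5.35 ± 0.19, and −3.69 ± 0.12. The magnesium chelatase subunits were unequal: CHLD1 was at −4.81 ± 0.13 and CHLH1, the porphyrin-binding subunit, at −2.63 ± 0.10. FEC1, the ferrochelatase that leads to heme, was at −0.61 and did not pass.

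Of 14 Calvin-Benson cycle genes 12 fell. RBCS2, a small subunit of Rubisco, had 2619, 2465, and 1855 FPKM at +10 h, against 7034, 6372, and 6567 FPKM at +6 h, and RCA1, the Rubisco activase, had 37.6, 43.8, and 29.9 FPKM at +10 h, against 447, 461, and 567 FPKM at +6 h. PGK1 had 133, 120.3, and 99.6 FPKM at +10 h, against 1264, 1195, and 1538 FPKM at +6 h. RCA1 (−3.70 ± 0.09), PGK1 (−3.49 ± 0.12), and RPE1 (−4.73 ± 0.11) fell more than RBCS2 (−1.54 ± 0.10) and PRK1 (−2.51 ± 0.15). The fall of RBCS2 was −0.53 after quantile normalization and then not called. Of 44 genes linked to carbon concentration 21 fell and none rose. CAH1, the periplasmic carbonic anhydrase, had 4.04, 6.82, and 17.2 FPKM at +10 h, against 334, 366, and 583 FPKM at +6 h, with replicate 3 highest at both timepoints. EPYC1, the linker of the pyrenoid, had 62.5, 67.8, and 68.2 FPKM at +10 h, against 524, 496, and 604 FPKM at +6 h (−3.01 ± 0.10). Not all members moved: LCIB1 was at −0.38, the thylakoid carbonic anhydrase CAH3 at −0.32, and the regulator CCM1 at 0.32, none of them called.

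Storage and lipid genes fell in part. Of 26 starch genes 6 fell and 1 rose, beside 11.2% fallen and 17.1% risen over all tested genes. Their median log2 fold change was −0.54, and 10 fell after median scaling. AGP1, a large subunit of the enzyme that makes ADP-glucose, had 48.4, 44.4, and 39.3 FPKM at +10 h, against 206, 205, and 244 FPKM at +6 h (−2.28 ± 0.09), and its small subunit partner AGP4 fell too (−2.22 ± 0.08). The debranching subunit ISA2 fell most (−3.21 ± 0.12), the synthase SSS2 fell slightly (−1.12 ± 0.14), and the synthase SSS5 was the gene that rose, at 14.04, 10.9, and 13.2 FPKM at +10 h, against 1.58, 1.78, and 1.11 FPKM at +6 h (2.47 ± 0.18). SSS2 lay under the minimum without replicate 3 at +10 h (−0.99). Of 43 fatty acid and membrane lipid genes 23 fell and none rose, 12 of the 14 for fatty acid synthesis among them. FAD6 had 19.2, 21.7, and 19.8 FPKM at +10 h, against 603, 564, and 601 FPKM at +6 h. BTA1, which makes a phosphorus-free betaine lipid, fell (−2.94 ± 0.15), as did the desaturase FAD9 (−2.81 ± 0.10).

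The lists of cytosolic, chloroplast, and mitochondrial ribosomal proteins had medians below 0 on FPKM as deposited, the cytosolic one above 0 after quantile normalization. All 75 cytosolic ribosomal protein genes had log2 fold changes between −0.84 and −0.24, under the minimum for a call, and 73 of them had a limma adjusted p below 0.01. For 74 of them all +10 h libraries were below all +6 h libraries, beside 34.4% of all tested genes. This direction rests on the scale: their median was −0.72 on FPKM as deposited, −0.98 after median scaling, when 28 fell, and 0.16 after quantile normalization. Of 37 chloroplast ribosomal protein genes 20 fell, with a median of −1.08. PRPL9 had 40.1, 48.5, and 33.1 FPKM at +10 h, against 139, 137, and 176 FPKM at +6 h, PRPS15 had 25.7, 33.1, and 17.3 FPKM at +10 h, against 68.3, 71.8, and 94.8 FPKM at +6 h, and PRPS5 had 18.8, 22.2, and 13.3 FPKM at +10 h, against 47.3, 49.8, and 63.6 FPKM at +6 h. The groups did not overlap, although replicate 3 was lowest at +10 h and highest at +6 h in each. Their log2 fold changes were −1.87 ± 0.10, −1.62 ± 0.13, and −1.53 ± 0.12. Of the list 14 fell without replicate 3 at +10 h, 7 without replicate 3 at both timepoints, and 33 after median scaling. Of 72 mitochondrial ribosomal protein genes 15 fell, led by MRPS105 (−2.12 ± 0.11), MRPS45 (−1.50 ± 0.12), and MRPL6 (−1.49 ± 0.12), with 36 after median scaling and 29 after quantile normalization. Of 19 ribosome biogenesis genes 5 rose, beside 17.1% of all tested genes, and 3 rose after median scaling, with NOP52 (2.48 ± 0.13), RPA12 (1.60 ± 0.33), and NEP1 (1.50 ± 0.11) in front.

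The counts for proteasome, respiration, chaperone, and clock genes stand beside 17.1% risen and 11.2% fallen over all tested genes. The 22 proteasome genes had log2 fold changes between −0.35 and 0.42, with a median of −0.11 that was 0.18 after quantile normalization. Of 96 genes for mitochondrial respiration 7 fell and 2 rose, and 24 fell after median scaling and 4 after quantile normalization. The assembly factors COX17 (−1.94 ± 0.34), COX15 (−1.78 ± 0.12), and COX11 (−1.39 ± 0.11) fell most, and NDA7 (2.49 ± 0.19) and NUOS4B (1.53 ± 0.14) rose. Among 42 chaperones, 6 rose and 8 fell, with 3 and 11 after median scaling. The falls were led by CPN60C, with 12.3, 12.7, and 12.7 FPKM at +10 h, against 97.3, 99.96, and 96.0 FPKM at +6 h, HSP70C (−2.39 ± 0.13), and VIPP1 (−2.31 ± 0.09), which acts on thylakoid membranes. The small heat shock protein HSP22D was listed at 0 in all +6 h libraries and had 3.37, 3.00, and 2.95 FPKM at +10 h, HSP70H rose by 1.76 ± 0.16, and CPN60B1 by 1.27 ± 0.12. Of 9 clock-associated genes, ROC66 rose (1.73 ± 0.09), while ROC75 had 0.0923, 0.0733, and 0.107 FPKM at +10 h, against 2.13, 0.665, and 0.839 FPKM at +6 h and was not called (−0.96 ± 0.15). ROC75 was called at −1.14 without replicate 2 at +6 h, at −1.06 without replicate 3 at +6 h, after median scaling (−1.23) or quantile normalization (−1.12), and with a pseudocount of 0.1 (−2.62). ROC15 and ROC40 were below 1 FPKM in all 6 libraries, and their log2 fold changes of −0.19 ± 0.10 and −0.10 ± 0.10 were not called, with −0.50 and −0.37 after quantile normalization.

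Cell wall genes moved in both directions, 15 of 64 up and 14 down, beside 17.1% and 11.2% of all tested genes. VLE1, the sporangin that lets daughters hatch, had 82.3, 80.4, and 37.8 FPKM at +10 h, against 11.3, 13.3, and 10.5 FPKM at +6 h (2.34 ± 0.16), with replicate 3 lowest at +10 h. The matrix proteases MMP32 (5.34 ± 0.27) and MMP14 (3.56 ± 0.26) rose. Pherophorins, glycoproteins of the wall, were divided: PHC31 had 104, 169.8, and 20.7 FPKM at +10 h, against 4.45, 8.28, and 3.69 FPKM at +6 h and rose (3.56 ± 0.44), with replicate 3 well below the other +10 h libraries, whereas PHC52 (−3.19 ± 0.17), PHC3 (−3.01 ± 0.12), and PHC24 (−3.23 ± 0.33) fell. PHC24 varied widely, with 8.59, 3.63, and 6.97 FPKM at +10 h, against 59.8, 40.0, and 117 FPKM at +6 h.

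Nitrogen and fermentation genes held both rises and falls, beside 17.1% risen and 11.2% fallen over all tested genes. Of 31 nitrogen genes, 23 of them tested, 8 fell and 3 rose, and of 19 fermentation genes 4 rose and 2 fell. Of 10 gluconeogenesis and glyoxylate cycle genes 4 fell and none rose, with 5 falls after median scaling and 2 after quantile normalization. The nitrite transporter NAR1B had 107, 125, and 163 FPKM at +10 h, against 890.2, 870.3, and 963 FPKM at +6 h (−2.80 ± 0.29), and NIT3 (−1.99 ± 0.13) and the glutamate synthase GSF1 (−1.91 ± 0.11) fell. The ammonium transporters AMT1A (2.29 ± 0.24) and AMT1C (2.06 ± 0.11) rose, as did glutamate dehydrogenase GDH1 (1.38 ± 0.18), which reached only 1.00 without replicate 3 at +6 h and lost the call. Isocitrate lyase ICL1, of the glyoxylate cycle, had 288, 284, and 248 FPKM at +10 h, against 1157, 837, and 594 FPKM at +6 h (−1.61 ± 0.22), a fall not called after quantile normalization (−0.86), and malate synthase MAS1 (−2.40 ± 0.23) and the acetyl-CoA enzyme ACS2 (−2.07 ± 0.08) fell. PCK1, of gluconeogenesis, had 130.1, 117, and 79.0 FPKM at +10 h, against 385, 263, and 134 FPKM at +6 h. It fell (−1.16 ± 0.24), but not without replicate 3 at +10 h (−0.95) or replicate 1 at +6 h (−0.82), after quantile normalization (−0.76), or with the 6 libraries fitted alone (limma adjusted p = 0.029). Of fermentation genes, PFR1 (1.57 ± 0.19) and the hydrogenase assembly factors HYDEF1 (1.51 ± 0.14) and HYDG1 (1.50 ± 0.23) rose, HYDG1 not when the 6 libraries were fitted alone (limma adjusted p = 0.015), and FDX5, a ferredoxin, fell to 2.56, 0.998, and 1.06 FPKM at +10 h, against 52.3, 33.4, and 50.9 FPKM at +6 h. The hydrogenase HYDA1 had 13.2, 13.8, and 9.08 FPKM at +10 h, against 14.2, 14.7, and 11.9 FPKM at +6 h, which overlapped (−0.18 ± 0.16, limma adjusted p = 0.33). HCP3 fell (−1.09 ± 0.22), but not without replicate 3 at +10 h (−0.87), replicate 1 at +6 h (−0.98), or replicate 2 at +6 h (−0.86), or with the 6 libraries fitted alone (limma adjusted p = 0.021).

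The place of the 2 timepoints in the day differed between these groups of genes. Across the 5 ML timepoints, CYCB1 averaged 16.3, 1.64, 1.40, 398, and 87.6 FPKM at −2, +2, +6, +10, and −10 h, so that +10 h was its highest point. IFT88 averaged 59.3, 4.98, 4.10, 18.4, and 82.4 FPKM at the same times, higher at night than at +10 h. VLE1 averaged 82.4, 25.7, 11.7, 66.8, and 80.6 FPKM, with the night levels above that at +10 h. CAH1, CPX1, and PRPL9 were highest at +2 h, with 875, 1038, and 1329.8 FPKM, and were already lower at +6 h. LHCBM1 and PSBO1 were highest at +6 h, at 15065 and 4364 FPKM.

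**Figure D4:**
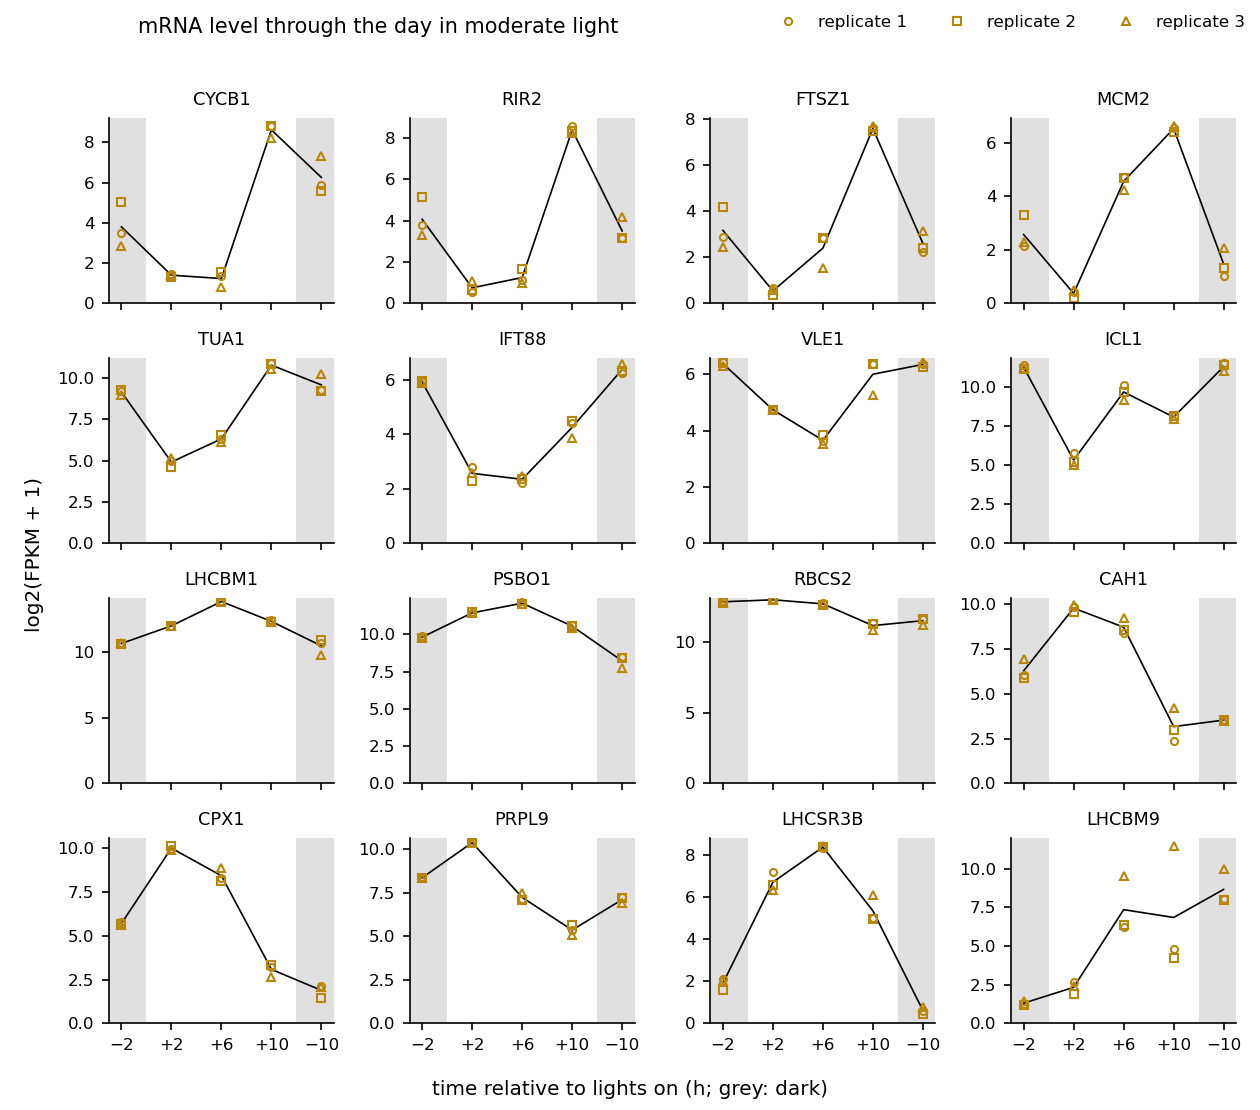
Level of 16 genes in ML as log2(FPKM + 1) at 5 times relative to lights on, with 1 symbol per replicate, lines through the means, and dark hours shaded. CYCB1, RIR2, FTSZ1, and MCM2 peak at +10 h, IFT88 is higher in the dark, CAH1, CPX1, and PRPL9 are highest at +2 h, and LHCBM9 separates replicate 3 at +6 and +10 h.

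The change from +6 to +10 h was then set against the same change at the other light intensities, in LL at 50 and HL at 1000 µmol photons per square metre per second, which share no library with ML. LL cultures first grew in ML before their light was lowered. According to the paper, their cell number did not quite double over the day and they were less synchronous than ML cultures. The part of this in the differences from LL was not tested. In LL, 1900 genes rose and 900 fell between these timepoints (13% and 6.16%), and in HL, 2424 rose and 1789 fell (16.6% and 12.3%). Of the ML rises, 65.5% were also called in LL and 79.2% in HL, which was 86.3% of the LL rises and 81.8% of the HL rises. Of the ML falls, 44.5% were also called in LL and 76.8% in HL, which was 81% of the LL falls and 70.3% of the HL falls. A difference in the change itself was called, by interaction contrasts in limma, for 1150 genes (7.88%) between ML and LL and for 525 genes (3.6%) between ML and HL. The change was more positive in ML than in LL for 3.53% of tested genes and more negative for 4.34%, and against HL for 1.44% and 2.16%. Without replicate 3 at both timepoints the second count was 330.

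Replication and chloroplast division genes had larger positive changes in ML. Of 43 replication genes 31 differed between ML and LL, TSY1 alone with the more negative change in ML, and 11 between ML and HL, and their median log2 fold changes were 2.58 in ML, 1.03 in LL, and 1.69 in HL. All 6 plastid division genes differed between ML and LL, with medians of 5.49 in ML and 2.83 in LL, and 3 differed between ML and HL, where the median was 4.35. The change of MIND1 was greater in ML than in LL by 4.54 ± 0.50 log2 units (limma adjusted p = 1.3e-08). CYCB1 rose by 7.39 in ML, 6.54 in LL, and 7.90 in HL, and neither difference passed (limma adjusted p = 0.21 for LL and 0.51 for HL). The 34 transport and BBSome genes had medians of 1.96 in ML, 1.58 in LL, and 2.20 in HL, and 1 of them differed between ML and LL.

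Pigment synthesis and plastid translation genes had more negative changes in ML. Of 28 chlorophyll and heme genes 18 differed between ML and LL and 14 between ML and HL, with medians of −3.18 in ML, −1.63 in LL, and −1.94 in HL. Of the 37 chloroplast ribosomal protein genes 33 differed between ML and LL, with a median of −1.08 in ML, 0.37 in LL, and −0.29 in HL, and 6 differed from HL. PRPL9 changed by −1.87 in ML, 0.08 in LL, and −0.77 in HL, and the difference of −1.96 ± 0.14 from LL passed (limma adjusted p = 1.3e-12). In ML, replicate 3 had the lowest mean level of the chloroplast ribosomal list at +10 h and the highest at +6 h. Its part in these differences was not tested. The antenna medians were closer together, at −1.51 in ML, −1.32 in LL, and −1.14 in HL. Among cell wall genes 23 of 64 differed from LL and 22 from HL, and PHC31 rose less in ML (3.56) than in LL (6.24) and HL (5.98), with limma adjusted p of 0.0012 and 0.0055 for the differences.

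**Figure D5:**
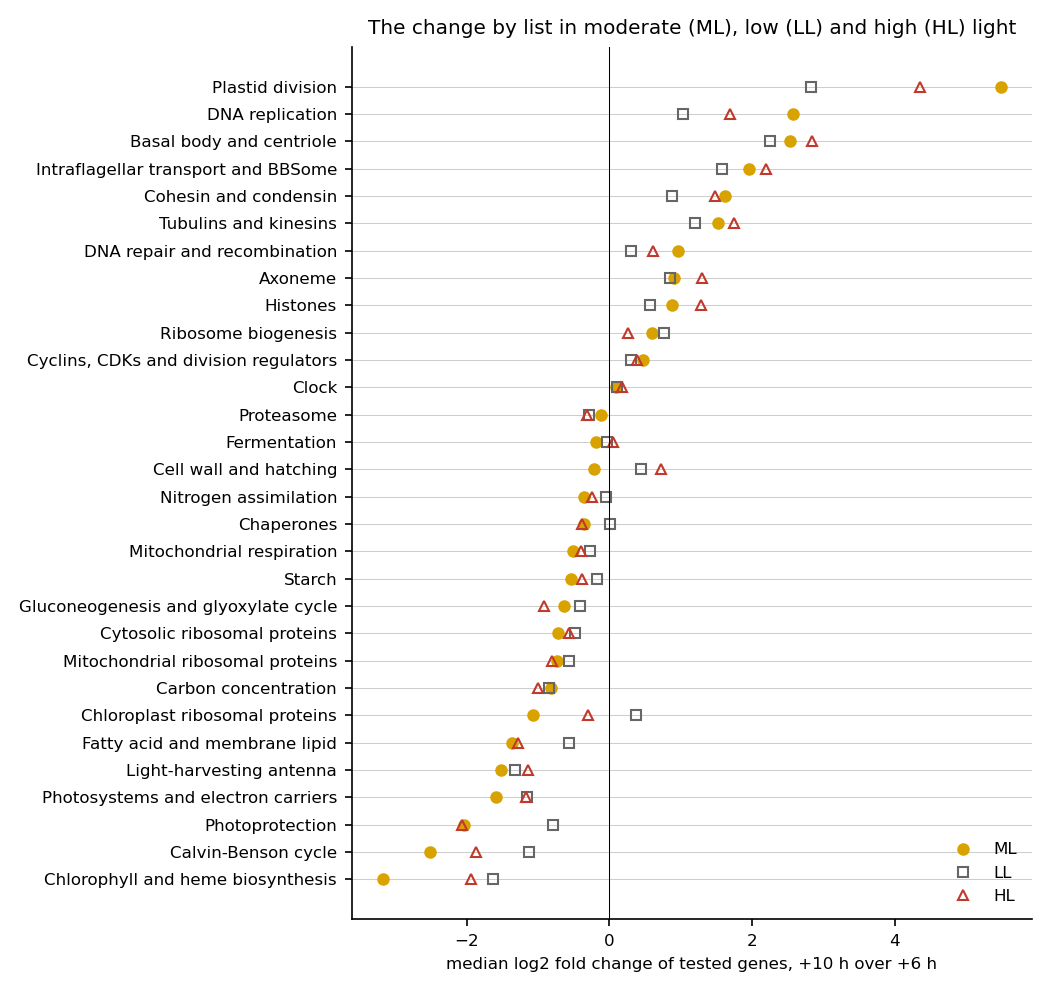
Median log2 fold change, +10 h over +6 h, of the tested genes of each list in ML (filled circles), LL (open squares), and HL (open triangles). Plastid division, DNA replication, chlorophyll synthesis, and the Calvin-Benson cycle each lie further from 0 in ML than in LL and HL. The chloroplast ribosomal proteins lie at −1.08 in ML, 0.37 in LL, and −0.29 in HL.

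Markers of mating and nitrogen limitation were mostly low, whereas those of dark anoxia, HYDA1, HCP4, and FDX5, were above 1 FPKM in all +6 h libraries. MTD1, a gene of mating type minus, was at 0 in all +10 h libraries and in 2 of 3 at +6 h, the last holding 0.0172 FPKM. The gamete genes FUS1, SAG1, and GSM1, the zygote genes ZYS1A and ZYS3, and LAO1 of nitrogen limitation were below 1 FPKM in all 6 libraries. GSP1, a homeobox gene of plus gametes, was above that, with 4.46, 4.07, and 4.83 FPKM at +10 h, against 20.4, 17.7, and 23.5 FPKM at +6 h, and fell (−1.97 ± 0.09). The zygote-named EZY1A had 2.19, 2.28, and 2.14 FPKM at +10 h, against 0.545, 0.719, and 0.593 FPKM at +6 h. HCP4 had 2.24, 2.24, and 1.91 FPKM at +10 h, against 3.52, 3.74, and 2.20 FPKM at +6 h. Its libraries overlapped, and it was not called (−0.39 ± 0.14). The levels of HYDA1 and FDX5 are given above with the fermentation genes. The part of these marker genes in the other results was not tested.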

How the data were processed

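FPKM per gene and library were deposited by the authors, who sequenced poly(A) RNA. The submitters' processing notes name STAR 2.4.0j and Cuffdiff 2.0.2, and genes follow the v6.1 annotation of strain CC-4532. The authors' table of mean FPKM was not used. Reads per library are not given in the sources used here, so the depth of each library is unknown and FPKM near 0 is imprecise.

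Log2(FPKM + 1) was fitted in limma 3.58.1 (R 4.3.3) with 1 model of 15 groups over 45 libraries and a mean-variance trend, for the 14602 genes with at least 1 FPKM in at least 3 libraries. P-values were Benjamini-Hochberg adjusted over these genes, and calls required an adjusted p below 0.01 and an absolute log2 fold change above 1. Interaction contrasts compared the change in ML with those in LL and HL. Python 3.11.15, numpy 2.4.6, pandas 2.3.3, and matplotlib 3.10.9 served for summaries and plots. The fit was tested on simulated data.

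Named genes were the 12 largest called and annotated changes in each direction without overlap of libraries, up to 3 in each direction per list, listed key genes, and the 3 most abundant mRNAs at each timepoint. A few further genes (RFC and APC subunits, CDC27, MAD2, CDC20, ALK2, ARC6, MCM3, FEC1, LCIB1, CAH3, CCM1, SMC3) were chosen after their values were seen. Members and lists were chosen with earlier results of these data known. Alternatives were pseudocounts, filters, median and quantile scaling, subsets of libraries, a replicate block, and thresholds. A gene that the rule names is not reported here.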

Additional observations from a re-analysis of the deposited data

Results flagged for a closer look

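The change from +6 to +10 h differed between light intensities by interaction contrasts in limma with Benjamini-Hochberg adjustment. Between ML and LL 1150 genes differed, 516 with a more positive and 634 with a more negative change in ML. Of the genes named above, the largest differences from LL toward a more negative change in ML were those of PHC24 (−3.76 ± 0.47, adjusted p = 1.3e-07), GSA1 (−3.02 ± 0.20, adjusted p = 1.6e-13), and FAP340 (−2.94 ± 0.34, adjusted p = 4.1e-08). Toward a more positive change they were those of MIND1 (4.54 ± 0.50, adjusted p = 1.3e-08), FAP414 (4.45 ± 0.54, adjusted p = 7.7e-08), and FTSZ1 (3.62 ± 0.47, adjusted p = 3.4e-07).

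Between ML and HL 525 genes differed, 210 with a more positive and 315 with a more negative change in ML. The named genes with the most negative differences were FDX5 (−3.08 ± 0.54, adjusted p = 0.0001), PHC31 (−2.42 ± 0.62, adjusted p = 0.0055), and PBGD1 (−2.42 ± 0.22, adjusted p = 9.9e-10). The most positive were FTSZ1 (2.64 ± 0.47, adjusted p = 0.00014), FAP414 (2.63 ± 0.54, adjusted p = 0.00066), and MIND1 (2.61 ± 0.50, adjusted p = 0.00033). In PHC31, replicate 3 in ML at +10 h had 20.7 FPKM, against 104 and 169.8 FPKM in the others, and its part in the difference was not tested.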

How the results depend on the processing

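Of 2866 values of 152 named genes under the alternatives, 2819 kept direction and side of the threshold, 29 values of 16 genes were no longer called, 12 of 4 genes became called, and 6 of 3 genes changed sign without a call in either fit. These were MAT3 after median scaling (−0.046), RPLP1 after quantile normalization (0.36), and LHCBM9 after quantile normalization (0.016) and without 1 library (−2.82 to 0.80 over the 6 libraries, above 0 in 3). Many named genes were chosen for large called changes in the main fit of these same libraries. Their stability is in part a result of that choice and does not stand for all calls. Without a minimum fold change, limma called 4760 rises and 4143 falls in ML, 4163 and 3436 in LL, 4494 and 4781 in HL, and differences for 2633 genes between ML and LL and 1365 between ML and HL. With a mean of at least 5 FPKM required, rises numbered 1356 in ML, 1161 in LL, and 1336 in HL. Median scaling gave 2491 falls in ML. It shared 75.6% of the rises and all 1639 falls with FPKM as deposited, and quantile normalization (2068 rises, 2065 falls) shared 80.0% and 90.7%. A pseudocount of 0.1 gave 3240 rises and 2122 falls. Leaving out 1 of the 6 libraries gave 2439 to 2592 rises, 1606 to 1709 falls, 1065 to 1228 differences from LL, and 420 to 631 from HL. Leaving out replicate 3 at both timepoints, chosen after the replicates had been compared, gave 330 differences from HL. With the replicate number as a block, 2500 genes rose and 1642 fell. Deviations of same-numbered libraries correlated at 0.056, 0.071, and 0.174, and those of differently numbered ones at −0.162 to 0.117. The highest of the latter was +6 h replicate 2 with +10 h replicate 1. Replicates were separate experiments according to the methods, so libraries of the same number may come from the same culture. The main fit did not take the numbers as pairs, and the fit with the block did. The number of reads per library is not known, which limits statements on mRNAs below 1 FPKM.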
